A study of Mus musculus with 4 samples.

Results

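The promoters of 60 genes for calcium, sodium and transient receptor potential (TRP) channels were examined for dimethylation of histone H3 at lysine 9 (H3K9me2) in mouse aortic media. They were chosen by a rule on the gene symbol that takes no measured value, set with earlier results of these data known. It took every promoter of the deposited table named as a Cacna1, Cacna2d, Cacnb or Cacng subunit or an Scn alpha or beta subunit. It also took those named as a Trpa, Trpc, Trpm or Trpv channel. The 60 were 26 calcium, 13 sodium and 21 TRP channel promoters of 26354 promoters in all. H3K9me2 had been measured by chromatin immunoprecipitation and sequencing (ChIP-seq). There were 2 experiments done separately, v102 and v134, and for each of them 1 H3K9me2 library and 1 input library without antibody. All 4 libraries came from the medial layer of aortas of male C57Bl/6J mice, taken straight from the animal after the fat, adventitia and endothelium had been removed by hand, and fixed in formaldehyde with no culture and no treatment. Age and the number of animals are not given in the sources used here, and a share of cells carrying the mark cannot be told apart from the amount of the mark per cell.

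H3K9me2 is written by histone methyltransferases and is known as a mark of silent genes in euchromatin. Voltage-gated calcium channels consist of a pore subunit (Cacna1) with accessory alpha2delta (Cacna2d), beta (Cacnb) and, in some tissues, gamma (Cacng) subunits, and voltage-gated sodium channels of a pore subunit (Scn alpha) with beta subunits. In arterial muscle the L-type channel formed by Cacna1c carries the calcium that drives contraction, and TRP channels add calcium and sodium entry in response to receptors, stretch or temperature. Most other members are known from nerve, skeletal muscle, heart or sense organs. The libraries measured chromatin and not expression.

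The promoters that carry the comparison are shown first, as RefSeq gives them on GRCm38.p6 (250 bases before to 50 bases after the start, 5′ to 3′, with each CpG in capitals). Cacna1c is the arterial pore gene, Trpc7 was the member with the highest mean ratio of H3K9me2 to input, and Scn4b the member with the lowest mean ratio among those with an entry near their gene start. The lowest of all was Scn3a. Cacna1c has 3 RefSeq starts, of which the first lies 9 bp from the start of the gene in GENCODE and the second 87923 bp further into the gene. The second was added after the values were seen because its CpG content differs so much from that of the first.
Cacna1c, first start, chr6:119196360-119196659, minus strand: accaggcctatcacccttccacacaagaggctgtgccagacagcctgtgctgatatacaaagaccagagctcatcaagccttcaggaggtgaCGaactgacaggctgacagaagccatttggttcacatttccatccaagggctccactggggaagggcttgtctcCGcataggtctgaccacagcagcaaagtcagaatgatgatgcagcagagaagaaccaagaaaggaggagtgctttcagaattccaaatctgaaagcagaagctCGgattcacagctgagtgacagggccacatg
Cacna1c, second start, chr6:119108446-119108745, minus strand: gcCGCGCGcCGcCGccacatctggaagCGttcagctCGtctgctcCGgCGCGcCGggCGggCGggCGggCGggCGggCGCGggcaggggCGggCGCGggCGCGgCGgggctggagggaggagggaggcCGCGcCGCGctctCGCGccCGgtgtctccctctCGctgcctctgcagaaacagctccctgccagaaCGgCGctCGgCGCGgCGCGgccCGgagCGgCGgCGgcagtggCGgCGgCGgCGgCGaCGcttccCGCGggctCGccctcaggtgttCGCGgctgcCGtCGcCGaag
Trpc7, chr13:56895740-56896039, minus strand: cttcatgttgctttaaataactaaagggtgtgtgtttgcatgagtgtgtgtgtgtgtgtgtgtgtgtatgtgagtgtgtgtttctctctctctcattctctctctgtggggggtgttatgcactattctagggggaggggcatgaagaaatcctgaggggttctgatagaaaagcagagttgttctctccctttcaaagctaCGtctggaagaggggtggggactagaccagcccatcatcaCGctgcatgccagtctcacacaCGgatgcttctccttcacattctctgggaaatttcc
Scn4b, chr9:45138374-45138673, plus strand: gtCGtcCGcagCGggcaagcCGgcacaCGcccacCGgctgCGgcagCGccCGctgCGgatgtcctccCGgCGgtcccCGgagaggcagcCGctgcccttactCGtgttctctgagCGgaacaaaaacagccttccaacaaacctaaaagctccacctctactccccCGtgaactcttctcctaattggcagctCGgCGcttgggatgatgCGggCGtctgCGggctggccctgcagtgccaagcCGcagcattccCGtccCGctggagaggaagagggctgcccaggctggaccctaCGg
The first Cacna1c start and Trpc7 had 3 CpG each in 300 bases, Scn4b had 26, and the second Cacna1c start had 57. For comparison, the median over all RefSeq entries was 7 CpG, 31.4% of entries had 3 or fewer and 0.152% had 57 or more. The deposited table gives 1 window per gene symbol and does not say which start it was centred on.

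The read counts were low. The H3K9me2 libraries held 162233 and 229605 reads over all promoters and the input libraries 619100 and 1084349, and a channel promoter had a median of 4 reads in each H3K9me2 library and of 19 and 37 reads in the inputs. No channel promoter lacked H3K9me2 reads in both experiments, but 4 lacked them in v102 and 5 in v134, and a count of 0 allows up to 3 reads. Mitochondrial promoters took 14.3% and 7.53% of the input reads and 0.200% and 0.175% of the H3K9me2 reads. Among the negative and positive control loci of the study, Actb stood at the 0.662 percentile and Magea2 at the 83.9 percentile of all promoters. In the edgeR test described below, Actb was below input (adjusted p = 0.000210). Magea2, with 3 and 7 H3K9me2 reads against 6 and 16 input reads, was not called above input (adjusted p = 0.170). By counts of listed promoters above and below input, smooth muscle markers had 1 and 3 of 8 (median percentile 19.9), endothelial markers 0 and 1 of 5 (53.6), fibroblast markers 0 and 1 of 3 (40.0) and leukocyte markers 2 and 0 of 4 (81.0), beside 18.6% above and 17.0% below among all promoters. These are levels of the mark and do not measure which cells were present.

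Considered together, the channel promoters were spread over nearly the whole range of the table. The deposited ratio, which is the summed H3K9me2 reads divided by the summed input reads and is not scaled for library size, ran from 0.022 at Cacnb3 to 1.07 at Trpc7. Its median over the members was 0.153, against 0.162 for all promoters, and 15 members reached the 75th percentile of the table (0.343). The log2 ratio, with each library scaled by its promoter total and 1 read added, was averaged over the 2 experiments and ranked: the median percentile of the members was 47.0, and 31 of 60 stood under the 50th percentile. In edgeR's quasi-likelihood test of the 2 H3K9me2 against the 2 input libraries, with Benjamini-Hochberg adjustment over all 26354 promoters, 11 of 60 members were above input at an adjusted p under 0.05, against 18.6% of all promoters. The same test put 9 members below input, against 17.0% of all promoters. Both shares (18.3% and 15.0%) were near those of the table, so the members as a set did not stand out from it.

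The calls below input depended more on the fit than those above, over the whole table as well as over the members. With the experiment number as a block, 9 of the 11 remained above input (15.8% of all promoters), and of the 9 below input 1 remained, Scn3a (8.3% of all promoters). With scaling by library totals and not by TMM, 8 members were above and 11 below input (16.3% and 21.5% of all promoters). In each experiment taken alone, 13 members were in the top quartile of both (17.7% of all promoters) and 4 in the bottom quartile of both, namely Cacnb2, Scn3a, Trpm5 and Cacna1d (12.7% of all promoters). Leaving out either input library left 0 members below input at an adjusted p under 0.05 in edgeR, with 4 and 3 at an unadjusted p under 0.05. In those fits 1.88% and 1.95% of all promoters were below input, so the loss was that of the whole table.

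**Figure D1:**
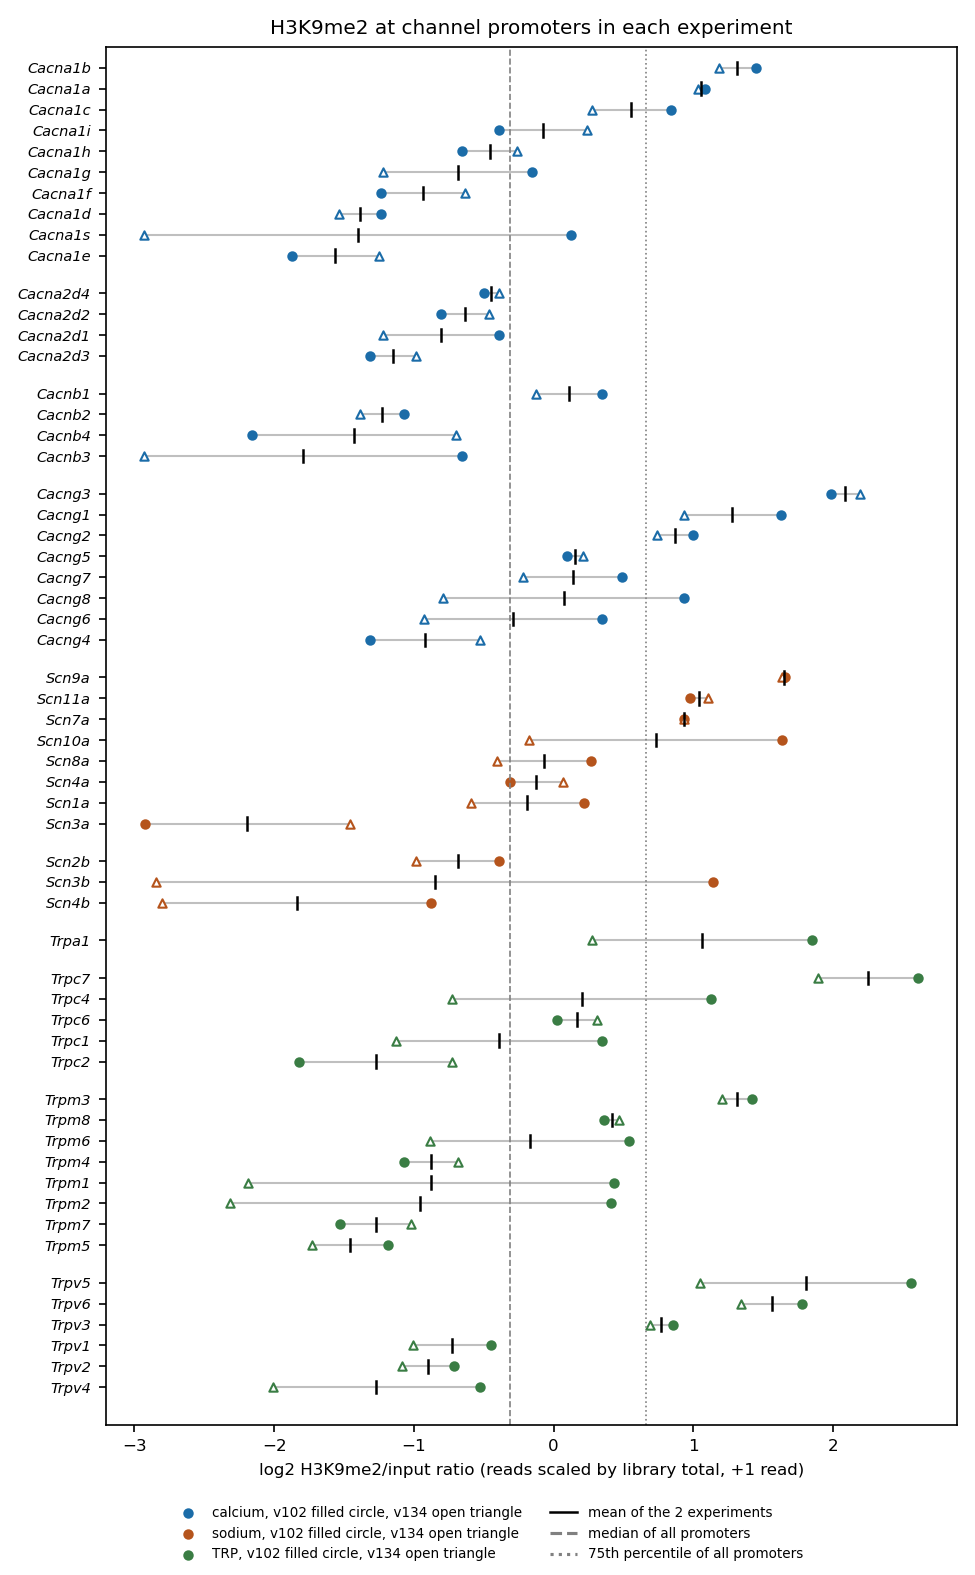
Each row is 1 of 57 channel promoters, grouped by class and ordered within it, with the log2 ratio of H3K9me2 to input on the x axis in experiment v102 (filled circle) and v134 (open triangle). Black ticks are the mean of both, and the vertical lines the median and the 75th percentile of all 26354 promoters. Trpc7 and Cacng3 have the highest means, although Trpv5 (2.56) stands to the right of Cacng3 (1.98) in v102. Promoters such as Scn3b and Cacna1s differ widely between the experiments.

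Among the calcium channel pore subunits, Cacna1b and Cacna1a had the highest ratios and Cacna1c the next highest. Cacna1b, the N-type pore of nerve terminals, had 14 and 12 H3K9me2 reads in v102 and v134 against 20 and 26 input reads. Its ratio was 0.565 (95% Wilson interval 0.351 to 0.910, from reads summed over both experiments, so that it covers counting error only). Cacna1b stood 1.43 ± 0.45 log2 units (SE) above input (edgeR adjusted p = 0.00800). Cacna1a, the P/Q-type pore of neurons, had 9 and 15 reads against 17 and 36 and stood 1.12 ± 0.45 above input (adjusted p = 0.0385, and 0.0708 with the experiments as a block). Both were in the top quartile of the table in both experiments.

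Cacna1c, on the minus strand of chromosome 6 (GRCm38, 118587240 to 119196418), had 14 H3K9me2 reads in v102 and 10 in v134, against 31 and 42 input reads. The ratio was 0.329, with an interval of 0.208 to 0.519. The log2 ratio was 0.84 in v102 and 0.27 in v134 (mean 0.56 ± 0.40, SD, n = 2), which placed the promoter at the 75.1 and 66.4 percentile of the 2 experiments and at the 72.7 percentile overall. It was not called above input (log2 fold change 0.65 ± 0.43, adjusted p = 0.223), nor under any of the 9 alternatives, where adjusted p-values ran from 0.0745 to 0.727. With the ratio corrected for GC content, its percentile was 60.3.

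The other pore subunits had fewer H3K9me2 reads. Cacna1i and Cacna1h, which form T-type channels with Cacna1g, had 2 and 8 and 2 and 5 H3K9me2 reads in v102 and v134, with ratios of 0.204 and 0.140, and Cacna1g had 3 and 1, with a ratio of 0.108. Cacna1s, the L-type pore of skeletal muscle, had 5 reads in v102 and 0 in v134 (ratio 0.091). Cacna1f, the L-type pore of the retina, had 1 and 2 reads (0.079). Cacna1d, the L-type pore of pacemaker and sensory cells, had 2 and 2 (0.061). Cacna1e, the R-type pore, had 1 and 3 (0.056). Of these, Cacna1d (log2 fold change -1.77 ± 0.71, adjusted p = 0.0403) and Cacna1e (-1.87 ± 0.70, adjusted p = 0.0265) were below input, and with the experiments as a block the adjusted p-values were 0.0796 and 0.0604. The windows of the L-type genes, 1 for each gene, therefore covered a wide span, from 0.061 at Cacna1d to 0.329 at Cacna1c. The interval of Cacna1c (from 0.208) did not overlap that of Cacna1d (to 0.160). It did overlap those of Cacna1s (to 0.221) and Cacna1f (to 0.241). Like Cacna1c, Cacna1d has a further RefSeq start inside the gene, 137969 bp from its GENCODE start, with 63 CpG in 300 bases.

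Cacna1c was then set against each other pore subunit and against their pooled reads by Fisher's exact test (two-sided) on the summed H3K9me2 and input reads, 10 comparisons with Benjamini-Hochberg adjustment. These tests cover counting error between promoters, since with 2 experiments no exact test over samples can go below p = 0.333. The ratio at Cacna1c was 5.84 times that at Cacna1e (95% interval 1.93 to 17.7, adjusted p = 0.00657), 5.42 times that at Cacna1d (1.79 to 16.5, adjusted p = 0.00657), 4.16 times that at Cacna1f (1.18 to 14.7, adjusted p = 0.0477) and 3.62 times that at Cacna1s (1.30 to 10.1, adjusted p = 0.0363). Within the experiments the adjusted p was under 0.05 for Cacna1s in v134, where that promoter had 0 H3K9me2 reads (adjusted p = 0.0492), and for no other of these 4 pairs in either experiment. No difference past the threshold was found against Cacna1b (0.582 times, 0.299 to 1.13), Cacna1a (0.726 times, 0.373 to 1.41), Cacna1i (1.61 times, 0.708 to 3.66), Cacna1h (2.35 times, 0.940 to 5.87) or Cacna1g (3.04 times, 0.982 to 9.41), and these intervals leave room for differences of several fold. Against the other 9 pooled, Cacna1c was 1.76 times higher (1.05 to 2.94), which did not pass after adjustment (adjusted p = 0.0796).

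**Figure D2:**
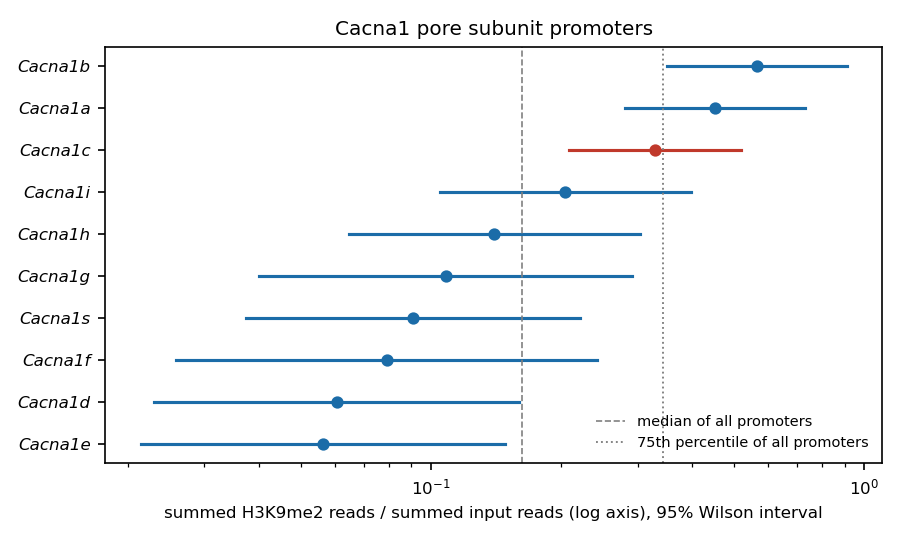
Ratio of summed H3K9me2 to summed input reads (log axis) at the 10 Cacna1 promoters, with 95% Wilson intervals that cover counting error, Cacna1c in red, and dashed and dotted lines at the median and the 75th percentile of all promoters. Cacna1c at 0.329 lies just under the 75th percentile of 0.343 and below Cacna1b and Cacna1a.

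The accessory subunits of the calcium channel fell on either side of the pore subunits. The 8 Cacng promoters had the highest mean level among classes of more than 1 promoter: their pooled reads gave a log2 ratio of 0.65 ± 0.35 (SD, n = 2 experiments) relative to all promoters pooled, and 1 of 8 stood under the 50th percentile. Cacng3, a brain gamma subunit that also binds AMPA receptors, had 27 and 29 H3K9me2 reads against 26 and 30 input reads, a ratio of 1.00 (0.692 to 1.45). The reads were nearly equal in the 2 experiments, and the promoter stood 2.23 ± 0.37 log2 units above input (adjusted p = 5.29e-08). Cacng1, the gamma subunit of skeletal muscle, had 16 and 18 reads against 20 and 46 and was also above input (1.33 ± 0.40, adjusted p = 0.00521). Cacng2, known as stargazin, had a ratio of 0.396 and did not pass (adjusted p = 0.106), although v102 and v134 each placed it in the top quartile. The remaining 5 ran down to a ratio of 0.098 at Cacng4, and none of them passed in either direction.

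The Cacna2d promoters and all Cacnb promoters but Cacnb1 stood under the 50th percentile. For the 4 Cacna2d promoters the pooled log2 ratio was -1.08 ± 0.04, and with GC content corrected for all 4 stood above the 50th percentile, between 57.0 and 74.2. The highest was Cacna2d4 (4 and 4 reads against 26 and 30) and the lowest Cacna2d3 (1 and 2 against 18 and 27), and none passed the test. Of the 4 Cacnb promoters, whose products bring the pore to the membrane, Cacnb1 was highest with a ratio of 0.204. Cacnb2 had 1 and 2 reads, Cacnb4 0 and 2, and Cacnb3 1 and 0, the lowest ratio of all members (0.022). Cacnb3 was below input (log2 fold change -3.13 ± 1.10, adjusted p = 0.0182, and 0.0714 with the experiments as a block). The pooled Cacnb log2 ratio was -1.36 ± 0.10.

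Sodium channel pore promoters included the member with the lowest mean ratio, Scn3a, and 2 above input. Scn9a, the pore of pain-sensing neurons, had 18 and 28 H3K9me2 reads against 22 and 43 input reads, a ratio of 0.708 (0.486 to 1.03), and stood 1.76 ± 0.38 above input (adjusted p = 3.99e-05). Its log2 ratio was nearly the same in v102 and v134 (1.66 and 1.64). Scn11a, also of pain-sensing neurons, had 17 and 14 reads against 34 and 32 and was above input (1.13 ± 0.41, adjusted p = 0.0218). Scn3a, a pore of the developing brain, had 0 and 3 reads against 28 and 51 and was below input (-2.43 ± 0.74, adjusted p = 0.00560, and 0.0294 with the experiments as a block). Scn7a (ratio 0.417, adjusted p = 0.0567) and Scn10a (0.397, adjusted p = 0.0524) missed the threshold, and Scn10a had 21 reads in v102 but 8 in v134. Scn1a (0.167), Scn4a (0.189) and Scn8a (0.190) lay near the middle of the table. A further pore gene appears in the table under its older symbol Scn2a1, which the rule did not take. It had 3 and 16 reads against 10 and 41, a ratio of 0.373, and did not pass (adjusted p = 0.150).

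Sodium channel genes that lie near each other on a chromosome did not always share a level. On chromosome 9 Scn10a and Scn11a, with starts 106 kb apart, had ratios of 0.397 and 0.470. On chromosome 2 Scn1a, at 0.167, lay 194 kb from Scn9a at 0.708, with Scn7a at 0.417 a further 150 kb away. Among the other clusters, Trpv5 and Trpv6 on chromosome 6, 44.4 kb apart, were both high (0.632 and 0.674), whereas Cacng1 at 0.515 and Cacng4 at 0.098 on chromosome 11 were 78.0 kb apart. Cacna1c lay 40.1 kb from Cacna2d4, at 0.329 and 0.143.

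The 4 beta subunit promoters all stood under the 50th percentile. Scn4b had 3 and 0 H3K9me2 reads against 27 and 32 and was below input (-2.02 ± 0.79, adjusted p = 0.0341, and 0.0902 with the block). Scn2b, the highest by mean ratio, had 2 and 2 reads against 14 and 27. Scn3b had 10 reads in v102 and 0 in v134 against 18 and 33 input reads. The pooled log2 ratio of the class was uneven between experiments, at -1.49 ± 1.56 (SD, n = 2).

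Among TRP channels, the canonical (Trpc) promoters included the highest of all members. Trpc7, on chromosome 13 (GRCm38, 56773113 to 56895993, minus strand), a receptor-operated channel, had 39 and 36 H3K9me2 reads against 24 and 46 input reads. Its ratio of 1.07 (0.775 to 1.48) was the highest of all 60, and it stood 2.39 ± 0.34 above input (adjusted p = 2.51e-10, and 1.72e-05 with the block). Trpc6, which belongs to the same diacylglycerol-gated subgroup and is known from arterial muscle, had 3 and 9 reads against 14 and 37 and passed in neither direction (ratio 0.235). The intervals of Trpc7 (from 0.775) and Trpc6 (to 0.437) did not overlap. Trpc1 (0.136), Trpc2 (0.078) and Trpc4 (0.216) did not pass.

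Of the 8 melastatin (Trpm) promoters, Trpm3, a heat and steroid sensor, was above input with 13 and 21 reads against 19 and 44 (1.38 ± 0.40, adjusted p = 0.00365). Trpm5, the taste channel, had 2 and 2 reads against 25 and 46 (-1.86 ± 0.70, adjusted p = 0.0278), and Trpm7, a widely expressed channel with a kinase domain, had 2 and 6 against 32 and 66 (-1.33 ± 0.55, adjusted p = 0.0427). Both were below input and neither passed with the block (0.0612 and 0.0686). Trpm4, which conducts monovalent ions in arterial muscle, had a ratio of 0.100. Trpm1 had 5 and 1 reads and Trpm2 7 and 1, so both were uneven between experiments.

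Trpm8, the cold sensor, had by far the most reads of any member, 39 and 53 in the H3K9me2 libraries and 118 and 183 in the inputs, and a ratio of 0.306 that did not pass the test (adjusted p = 0.195). These reads cannot be assigned to it alone. The GENCODE start of Trpm8 is 28 bp from that of Hjurp, a gene for centromere assembly on the opposite strand, and Hjurp was listed with 39 and 51 H3K9me2 reads and 118 and 182 input reads, nearly the same counts. The RefSeq start of Trpm8 lies 29074 bp downstream. With Trpm8 left out, which was chosen after seeing the data, the pooled log2 ratio of the Trpm class moved from -0.07 ± 0.24 to -0.47 ± 0.50. Scn1a was listed with the same 4 counts as an antisense gene whose start is 40 bp away (Gm13629), so those reads are shared too. The starts of Cacnb1, Cacng2 and Cacng4 lie 79, 322 and 691 bp from that of another listed gene. Those of Trpm4 and Cacna1f lie 1510 and 1566 bp from 1. Part of the reads of these promoters may be shared as well.

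The vanilloid (Trpv) and ankyrin (Trpa) promoters included 3 of the 11 above input. Trpv5 and Trpv6, the calcium-selective channels of kidney and gut epithelium, had 16 and 20 reads against 10 and 47 and 17 and 14 reads against 19 and 27. Both were above input (1.66 ± 0.40, adjusted p = 0.000402, and 1.69 ± 0.43, adjusted p = 0.000749). The log2 ratio of Trpv5 was uneven between the experiments, at 2.56 in v102, where the input had 10 reads, and 1.05 in v134. Trpa1, the irritant sensor, had 16 and 10 reads against 17 and 42 (1.12 ± 0.43, adjusted p = 0.0323), and the block raised its adjusted p to 0.0807. Trpv3 had a ratio of 0.362 and did not pass. Trpv1 (0.113), Trpv2 (0.096) and Trpv4 (0.069) had lower ratios, and none of them passed. Thus the epithelial pair stood apart in level from Trpv1, Trpv2 and Trpv4. The intervals of Trpv5 (from 0.417) and Trpv6 (from 0.429) began above those of Trpv1 (to 0.242), Trpv2 (to 0.204) and Trpv4 (to 0.183). Trpv2 and Trpv4 are known from arterial muscle and Trpv1 from nerve. Trpv1 had 4 and 3 H3K9me2 reads (edgeR adjusted p = 0.253). Whether the level of Trpv promoters differs between arterial and other genes was not tested.

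**Figure D3:**
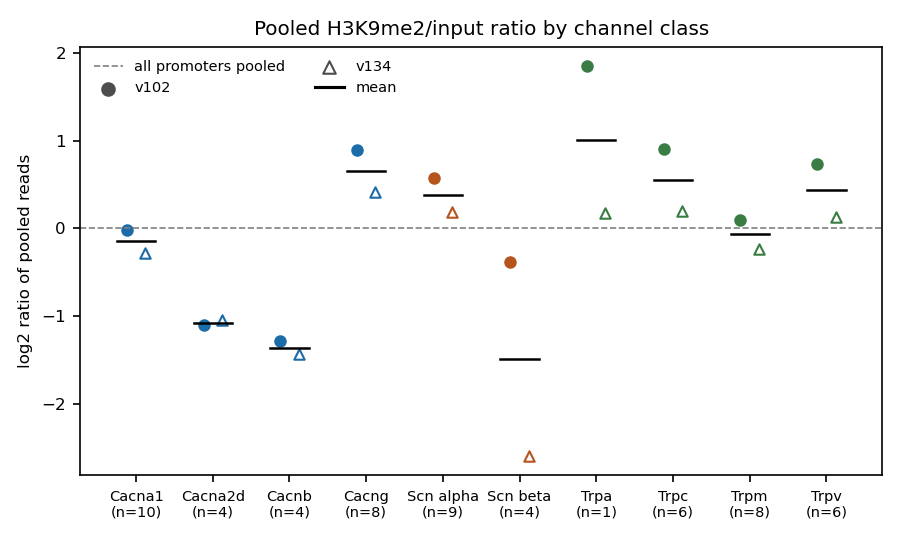
Log2 ratio of pooled H3K9me2 to pooled input reads for each channel class (y axis), scaled so that all promoters pooled give 0, in v102 (filled circle) and v134 (open triangle), with the mean as a bar and the number of promoters under each name. Cacna2d, Cacnb and Scn beta lie below 0 in both experiments, and the Scn beta points are far apart.

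By class, the percentile of the single Trpa promoter was 82.7, and the median percentiles were 62.7 for Cacng, 57.6 for Trpv, 57.2 for Scn alpha, 55.6 for Trpc, 42.5 for Cacna1, 38.1 for Cacna2d, 33.4 for Trpm, 26.0 for Scn beta and 20.4 for Cacnb. This order depended on the processing. With GC content corrected for, the medians were 66.6 for Cacna1, 63.8 for Cacna2d, 85.2 for Cacng and 24.6 for Cacnb. With v134 left out the Trpm median was 64.1, and with v102 left out the Cacnb median was 32.7. In both experiments the pooled ratios of Cacng, Scn alpha, Trpc and Trpv were above those of Cacna2d, Cacnb and Scn beta. Single promoters weighed heavily in some of these pooled values. Trpc7 held 75 of the 113 H3K9me2 reads of Trpc. Trpv5 and Trpv6 held 36 and 31 of the 106 of Trpv, and Cacng3 held 56 of the 165 of Cacng. Cacna1c was compared with the pooled reads of each other class and of all other members, again 10 comparisons by Fisher's exact test (two-sided). Its ratio was 3.78 times that of Cacnb (1.90 to 7.52, adjusted p = 0.00198), 3.27 times that of Scn beta (1.69 to 6.33, adjusted p = 0.00290) and 2.99 times that of Cacna2d (1.59 to 5.61, adjusted p = 0.00290). The differences from Cacna2d and Cacnb also passed within v102 (adjusted p = 0.0362 for each) and the difference from Scn beta within v134 (adjusted p = 0.0125). Against all other members pooled, Cacna1c was at 1.34 times their ratio (0.841 to 2.14, adjusted p = 0.490), and against Cacng, Scn alpha, Trpa, Trpc, Trpm and Trpv the adjusted p-values ran from 0.244 to 0.897. Among the accessory classes of the calcium channel, Cacna1c thus had a higher ratio of summed reads than Cacna2d and Cacnb. No difference past the threshold was found from Cacng (0.927 times, 0.565 to 1.52, adjusted p = 0.894). These tests on pooled reads do not cover the spread among the promoters of a class. With GC content corrected for, Cacna1c stood at the 60.3 percentile, under the Cacna2d median of 63.8 and above the Cacnb median of 24.6.

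The members known from arterial muscle were compared with those known from excitable tissue and sense organs by counts. Of 13 arterial channel promoters, 11 stood under the 50th percentile (median 33.4), 0 were above input and 3 below (Cacnb3 and Trpm7 among them), against 18.6% and 17.0% of all promoters. For the edgeR count of 0 above input, 0 promoters had an unadjusted p under 0.05 in that direction with edgeR and 0 with DESeq2. Cacna1c, at the 72.7 percentile, was the highest of the 13. Of 22 excitable tissue promoters, 9 stood under the 50th percentile (median 56.4), 7 were above input (Cacna1a, Cacna1b, Cacng1, Cacng3, Scn9a, Scn11a and Trpa1) and 4 below (Cacna1e, Scn3a and Trpm5 among them), or 31.8% and 18.2% of the list. With GC content corrected for, the medians of the 2 lists were 47.7 and 53.6. With the experiments as a block, 0 of 13 arterial promoters passed in either direction, with 3 below input at an unadjusted p under 0.05, and 5 of 22 excitable tissue promoters were above and 1 below input, against 15.8% and 8.3% of all promoters. The difference between the lists was not tested, and both lists were chosen with earlier results of these data known.

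Genes of the same pathway that are not members (pumps, release channels, store sensors, calmodulins) were low as well. Of 28 such promoters 22 stood under the 50th percentile (median 31.4, and 43.3 with GC content corrected for), 1 was above input and 8 were below, or 3.57% and 28.6% against 18.6% and 17.0% of all promoters. The promoter above input was that of Slc8a1, the sodium-calcium exchanger, with 13 and 24 reads against 18 and 55 and a ratio of 0.507 (adjusted p = 0.00426). Among those below, Itpr3, an inositol trisphosphate receptor, had 0 and 2 reads against 21 and 46 (adjusted p = 0.00714, and 0.0359 with the block), and Atp2b1, a plasma membrane calcium pump, had 0 H3K9me2 reads in both experiments against 13 and 18 input reads (adjusted p = 0.0111). With the block, 1 was above and 1 below input (15.8% and 8.3% of all promoters).

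Base composition was described for the window of 1 kb on either side of the GENCODE start, which is known for all 60 members. Across the matched promoters of the table the mean log2 ratio fell with GC content (Spearman's rho -0.55 over 22299 promoters) and with the ratio of observed to expected CpG (-0.52). Across the members the same correlations were -0.31 and -0.15. Promoters share libraries and neighbouring windows share reads, so these are descriptions. Split at an observed to expected ratio of 0.6, a value set after seeing the data, 17 CpG-rich members had a median percentile of 39.0, with 1 above and 3 below input, and 43 CpG-poor members a median of 54.1, with 10 above and 6 below. All matched promoters had medians of 28.7 and 59.5 on the same split, with 3.59% above and 31.6% below input in the CpG-rich group and 24.1% and 10.9% in the CpG-poor group. The members above input among the CpG-poor (23.3%) were thus near the share of all such promoters. The CpG-rich promoter above input was that of Cacna1b, with an observed to expected ratio of 0.792. At the other end, Scn3a was low at a CpG ratio of 0.315, close to that of Trpc7 (0.318) and of Cacna1c (0.306). Promoters of near-equal CpG content thus spanned the highest and the lowest member.

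**Figure D4:**
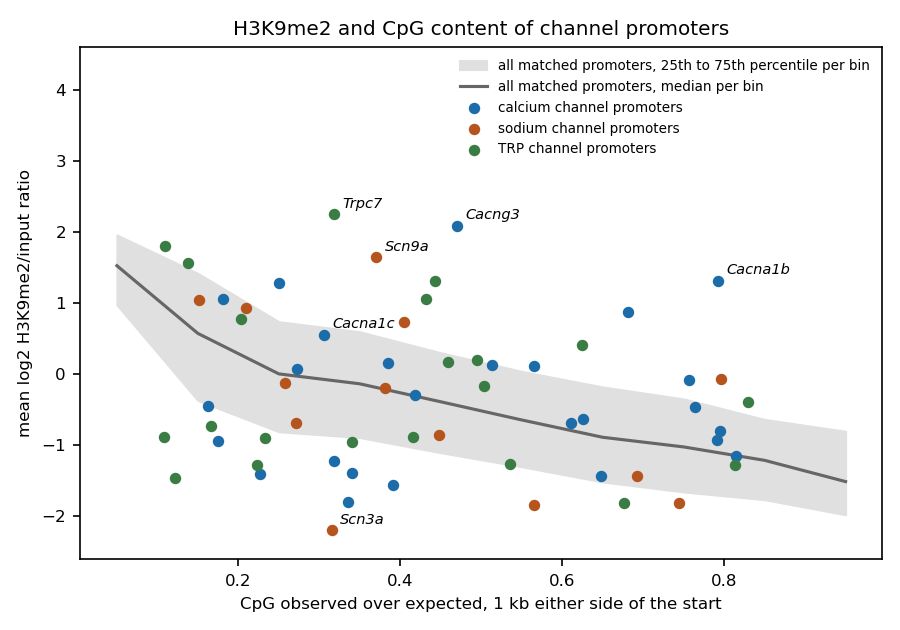
Mean log2 ratio of H3K9me2 to input (y axis) against the observed over expected CpG ratio within 1 kb of the start (x axis) for the 60 channel promoters, with the median (line) and the 25th to 75th percentile (band) of all matched promoters in bins of 0.1. Cacna1b stands far above the band at 0.792, and Trpc7, Cacna1c and Scn3a lie near the same CpG content at different heights.

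Spearman's rho between v102 and v134 was 0.61 over the 60 members and 0.69 over all promoters. Positions named here rest on a match of symbols to GENCODE, and a RefSeq start was found within 1 kb of the GENCODE start for 40 of the 47 members with a RefSeq entry. The exceptions included Cacna1e, 158581 bp away, and Cacng3, 1252 bp away.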

How the data were processed

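H3K9me2 ChIP and input DNA of aortic media from 2 experiments were sequenced as paired-end libraries. The authors trimmed the reads (Trim Galore 0.4.2 and cutadapt 1.9.1, per the submitters' processing notes), aligned them to GRCm38 with Bowtie2 2.2.7, used SeqMonk to count the reads lying up to 1 kb from each start site, and removed genes with few input reads. The deposited table holds raw read counts for the 4 libraries, their sums, and the ratio of summed H3K9me2 to summed input counts, which is not scaled for library size. Which annotation release was used, and whether duplicate reads were removed, is not given in the sources used here. The intervals were computed from reads summed over both experiments, so they cover counting error only. These reads carry no molecular identifiers, and duplicate reads, if kept, would make the intervals too narrow.

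H3K9me2 and input counts were compared over all 26354 promoters in R 4.3.3 with edgeR 4.0.16 (TMM factors, quasi-likelihood F test), and p-values were adjusted by Benjamini-Hochberg. A log2 fold change over the root of its F value served as the standard error. The log2 ratios used each library's total over the table, with 1 read added. Spread between the 2 experiments is that of 1 library pair each. Wilson intervals and Fisher's exact tests used scipy 1.17.1. The script was tested on simulated counts. Alternatives were the experiment number as a block, library totals, DESeq2 1.42.0, at least 20 reads in each input, mitochondrial promoters left out, pseudocounts of 0.5 and 5 reads, a GC correction by lowess, and each library left out.

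The experiment numbers pair an immunoprecipitation with its own input, since the study names the input as associated with each experiment. The differences between experiments correlated weakly between the 2 kinds of library (0.076 over 25338 promoters with a mean of at least 10 reads).

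Positions and base composition came from GENCODE for GRCm38.p6, in which all 60 members matched 1 gene, and sequences from RefSeq, in which 47 members had an entry. The text names every Cacna1 promoter, the highest and lowest promoter of each other class, every member above input, and the arterial and excitable tissue lists. Some single promoters under this rule are not reported here, although counts and class values include them. Other members were named after their values were seen. The members and lists were chosen with earlier results of these data known.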

Additional observations from a re-analysis of the deposited data

How the results depend on the processing

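Of the 11 members above input, 9 passed with the experiment number as a replicate block, 8 with library totals, 11 with mitochondrial promoters left out, and 5 with DESeq2, which called 5 in all and gave no adjusted p for 39 of the 60. Leaving out each library in turn gave 5 to 10 members above input. The count below input depended more on the processing. It was 9 in the fit without a block, 1 with the replicate block, 1 with at least 20 reads in each input (29 members tested), and 0 with DESeq2, where 1 member was below input at an unadjusted p under 0.05 and 14 were in edgeR. Over all promoters the counts below input were 4484, 2187 with the block, 1678 of the 13993 that reach 20 reads in both inputs, and 29 with DESeq2, so the whole table lost calls too. Leaving out any 1 library lowered the count below input as well, for the members and for all promoters, and most of all without an input library. An arm left with 1 library was assumed to vary like the other. The direction of the 20 called members was the same in every alternative fit, and 17 of the 40 others changed sign in at least 1. Library totals shifted the log2 fold changes as a whole, with a median over the table of -0.50 against -0.35 under TMM. The median percentile of the members was 47.0, and 64.2 once the trend with GC content had been removed. Class medians moved with it, from 42.5 to 66.6 for Cacna1 and from 38.1 to 63.8 for Cacna2d. The cause of these differences was not tested. The replicate block left Cacna1c uncalled (adjusted p = 0.257). The median of 4 H3K9me2 reads per member and library limits the precision at single promoters.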
